A study of Mus musculus with 12 samples.

Results

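Mef2a, Mef2c, Mef2d and Six4 encode transcription factors of the muscle differentiation programme, and their transcripts were followed while C2C12 cells, an immortalised mouse myoblast line, were switched from growth to differentiation. The 4 genes were found by matching the RefSeq accession of each array probe to their symbols. Each had exactly 1 matched probe, so 4 of the 37246 probes used carried them, and no second matched probe of a gene was there to compare. The match named 22216 of the 37246 probes, so a further probe among the unnamed ones would not be seen. The scanner flagged all 4 probes as well above background on all 12 arrays, and they were among the 22959 probes tested.

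4 stages were measured, with 3 arrays each. Proliferating cells, the untreated stage, were grown in DMEM with 10% fetal bovine serum to 80 to 90% confluence. The differentiating cells were moved to DMEM with 2% horse serum and taken after 2, 5 or 8 days. All stages share 1 cell line, for which the labels give no genetic change, and the labels name 3 independent experiments per stage without saying how the cultures were kept apart. The p-values therefore rest on array-to-array spread, which may be technical. RNA was labelled with Cy3 and hybridised to one-colour Agilent arrays.

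MEF2 proteins bind A/T-rich sites in the control regions of muscle genes and work together with the myogenic helix-loop-helix factors, such as MyoD and myogenin. Class II histone deacetylases hold them in a repressive state, and calcium-dependent kinases, calcineurin and p38 kinases release or activate them. SIX-family proteins are homeodomain factors that bind the MEF3 element, and they gain activating function with EYA cofactors. Much of this control acts on the proteins, which the arrays do not measure.

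The arrays gave 75th percentiles of signal of 1295 to 1993 scanner units, and 0 spots were saturated. Signals are given as log2 of the scanner signal minus log2 of the array's own 75th percentile, so that 0 is the level of that percentile. A change was called where limma's adjusted p was under 0.05, with Benjamini-Hochberg adjustment over the 22959 probes. The arrays lay on 3 slides: slide 1 held the 3 proliferation arrays and day 2 array 1, slide 2 the other day 2 arrays and day 5 arrays 1 and 2, and slide 3 the remaining day 5 array and all of day 8. Proliferation and day 8 therefore share no slide. The 9 myoblast and myotube markers (such as Myod1, Des and Ckm) were well above background on all 3 arrays of a stage for 8 genes in proliferation and for 9 in each later stage. Their summed level, relative to the 75th percentile, was 134 to 176 in proliferation, 164 to 207 at day 2, 612 to 683 at day 5 and 381 to 505 at day 8. The 3 cycling-cell markers (Mki67, Top2a and Ccnb1) summed to 54.4 to 62.3, 43.5 to 60.5, 9.28 to 10.3 and 6.39 to 8.05 over the same stages. Called singly, 5 of the 9 muscle markers were higher and 1 lower at day 8 than in proliferation, beside 25.4% and 29.4% of all tested probes. Of the 3 cycling markers, 1 was called lower at day 2, where 30.6% of all tested probes changed. All 3 were lower at days 5 and 8, beside 23.8% and 29.4%. Of markers of other lineages, macrophage, endothelial and adipocyte genes summed to at most 1.07 on any array, neural genes to 16.1 to 54, osteoblast genes to 6.38 to 10.9 and smooth muscle genes to 39.2 to 67. Adipoq, Plin1 and Lep (fat), Adgre1 (macrophage) and Cnn1 (smooth muscle) were not well above background on any array. The part of the cycling and muscle markers' shift in the results below was not tested. In a culture of mixed cells, a smaller share of cells of a type and less RNA per cell cannot be told apart.

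1 of the 4 genes, Mef2c, changed over the stages in the F test (adjusted p = 1.75e-05), against 65.8% of all tested probes. Mef2a (adjusted p = 0.352), Mef2d (0.534) and Six4 (0.196) were not called in the same limma F test. At day 2 none of the 4 was called, where 30.6% of all tested probes were. At day 5 and at day 8 only Mef2c was called among the 4, against 47.5% and 54.8% of all tested probes that changed from proliferation. Day 5 against day 2 (30.1% of all tested probes called) and day 8 against day 5 (12.6%) also called Mef2c alone of the 4.

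Mef2c, the MEF2 factor whose loss in the mouse stops heart development and disturbs fibre structure, was lowest at day 2 and highest at day 8. Its probe (RefSeq NM_025282) read 72.3, 48.0 and 59.6 scanner units on the 3 proliferation arrays. It read 28.9, 40.1 and 31.6 at day 2 and 96.4, 70.8 and 65.7 at day 5. At day 8 it read 158.9, 296.4 and 134.0. The spot that read 296.4 was flagged as non-uniform. Without non-uniform spots Mef2c at day 8 was 1.77 above proliferation and 1.04 above day 5 on the log2 scale, both called. On the log2 scale the stage means were -4.99 ± 0.20 in proliferation, -5.51 ± 0.20 at day 2, -4.27 ± 0.27 at day 5 and -3.02 ± 0.40 at day 8 (SD, n = 3 arrays each). No 2 of these stages overlapped in a comparison made here: every day 8 array lay above every day 5 array, and every day 5 array above every proliferation and day 2 array. Of all tested probes, 46.3%, 56.3% and 63.5% did not overlap proliferation at days 2, 5 and 8, 45% did not overlap between day 5 and day 2, and 36.1% not between day 8 and day 5.

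The rise of Mef2c at day 8 against proliferation was 3.93-fold (95% interval 2.81 to 5.5), a log2 fold change of 1.97 ± 0.22 (SE; limma adjusted p = 2.48e-05). At day 5 it was 1.66-fold higher than in proliferation (log2 fold change 0.73 ± 0.22, interval 0.24 to 1.21, adjusted p = 0.0182). That call was lost without proliferation array 2 (0.63, adjusted p = 0.0672), without day 5 array 1 (0.57, 0.0746), with normexp background correction (0.41, 0.0585) and with the slide as a fixed block (0.59, 0.373). Between day 5 and day 2 the gain was 1.25 ± 0.22 (adjusted p = 0.00136), and between day 8 and day 5 it was again 1.25 ± 0.22 (adjusted p = 0.00683). The first of these steps was not called with normexp (0.46, adjusted p = 0.0677), and the second not with the slide block (1.37, 0.0586). The day 8 rise over proliferation was called under all 21 alternatives, with log2 fold changes of 1.17 (normexp) to 2.19 (quantile normalization), and was 1.96 (adjusted p = 0.0369) with the slide block. The normexp value lies below the 95% interval of the reported change, 1.49 to 2.46 on the log2 scale. The Mef2c probe was dim in proliferation and at day 2, with mean signals of 60 and 33.6 scanner units. Normexp added an offset of 50, which by construction shrinks log2 changes of probes this dim. Its smaller values therefore cannot tell how much of these changes is background. For the day 8 rise, subtracting each array's median of the negative-control probes gave 2.08, and the part of background in the rise was not tested further. At day 2 the log2 fold change was -0.52 ± 0.22 (interval -1.0 to -0.03), with no overlap between the stages, but an adjusted p of 0.0986 did not pass the threshold. With normexp this day 2 change was -0.05 (adjusted p = 0.846).

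Within slides, where stage and slide are separate, Mef2c differed by -0.65 on slide 1 (1 day 2 array against 3 proliferation arrays), by 1.24 on slide 2 (2 day 5 against 2 day 2 arrays) and by 1.37 on slide 3 (3 day 8 against 1 day 5 array), on the log2 scale. These differences have the signs of the comparisons over all arrays. The slide-block values above are built from these same differences, so they are not a separate check. Day 2 array 1 alone joins slide 1 to the later slides, and 1 day 5 array alone joins slide 3 to slide 2.

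**Figure D1:**
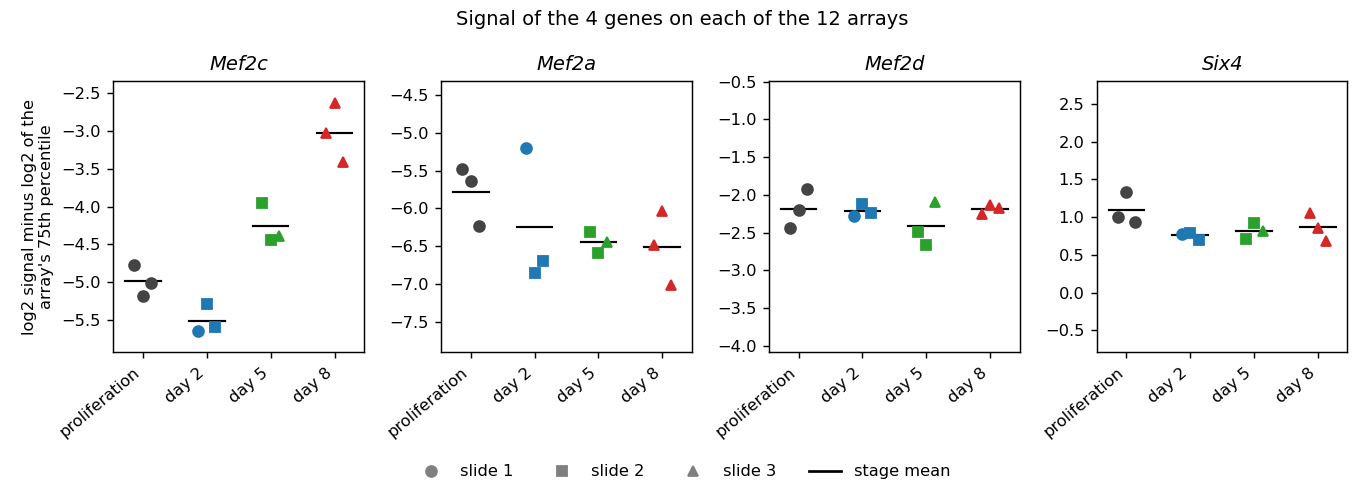
Signal of each gene on the 12 arrays, as log2 minus log2 of the array's 75th percentile (vertical axes, each spanning the same log2 range), by stage (horizontal). Symbols are arrays, shaped by slide, and black lines are stage means. Mef2c means run through -4.99, -5.51, -4.27 and -3.02, whereas the day 2 array of slide 1 carries the highest Mef2a value.

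**Figure D2:**
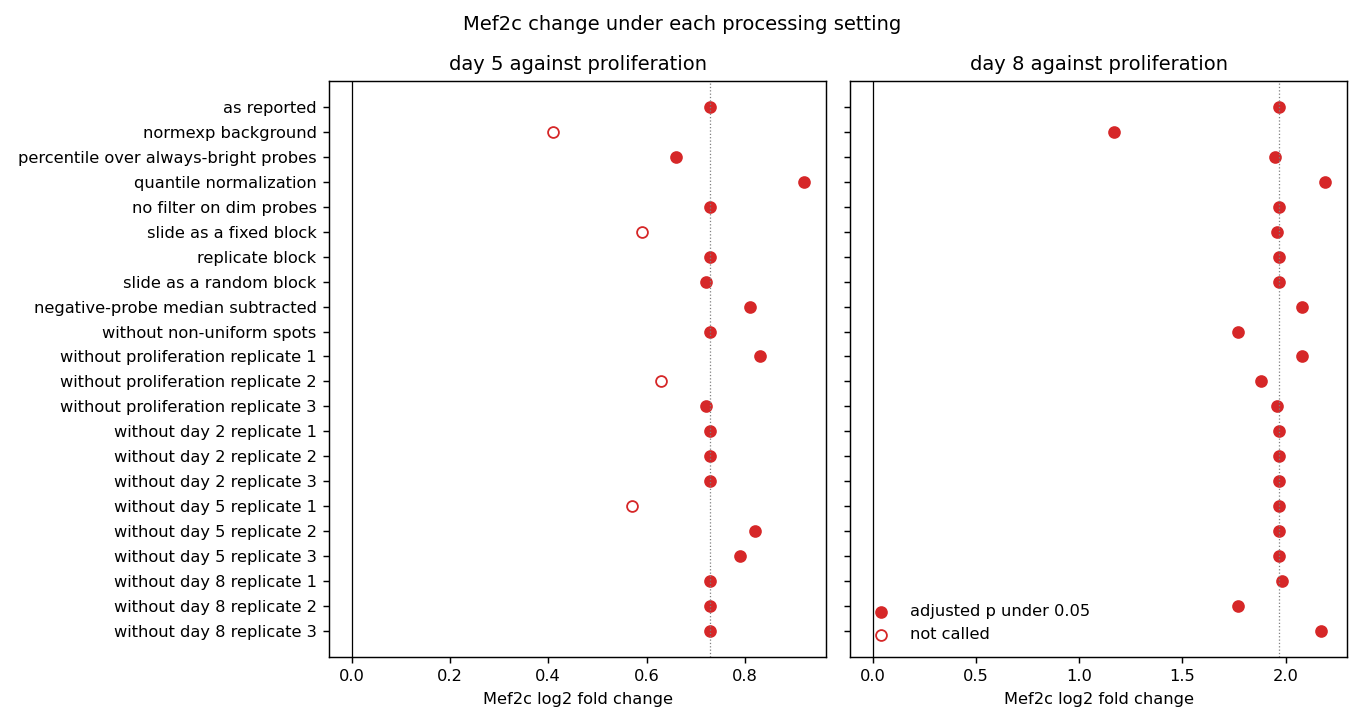
Log2 fold change of Mef2c (horizontal) as reported and under each of 21 processing alternatives (rows), for day 5 (left) and day 8 (right) against proliferation. Filled points passed adjusted p under 0.05, open points did not, and the dotted line marks the reported value. At day 8 all 21 alternatives are filled, at 1.17 to 2.19, and 17 are at day 5, at 0.66 to 0.92.

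Mef2c has 3 annotated starts in the RefSeq promoter table (build GRCm38.p6), shown because Mef2c was the gene that changed. Each window runs from 250 bases before to 50 bases after the start, in the direction of the gene, and capitals mark the motifs searched: the E-box CANNTG bound by myogenic helix-loop-helix factors, the MEF3 element TCAGGTT on either strand, and the MEF2 consensus. Of 32851 windows of 300 bases in the table, 72.3% hold the E-box, 4.07% the MEF3 element and 3.19% the MEF2 consensus.
Mef2c window 1, chr13:83503784-83504083, plus strand: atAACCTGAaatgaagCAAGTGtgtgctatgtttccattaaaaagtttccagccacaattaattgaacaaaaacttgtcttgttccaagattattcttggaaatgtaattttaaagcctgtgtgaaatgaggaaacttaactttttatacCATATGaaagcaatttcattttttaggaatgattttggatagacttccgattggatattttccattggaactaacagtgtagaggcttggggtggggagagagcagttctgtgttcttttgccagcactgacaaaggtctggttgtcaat
Mef2c window 2, chr13:83523406-83523705, plus strand: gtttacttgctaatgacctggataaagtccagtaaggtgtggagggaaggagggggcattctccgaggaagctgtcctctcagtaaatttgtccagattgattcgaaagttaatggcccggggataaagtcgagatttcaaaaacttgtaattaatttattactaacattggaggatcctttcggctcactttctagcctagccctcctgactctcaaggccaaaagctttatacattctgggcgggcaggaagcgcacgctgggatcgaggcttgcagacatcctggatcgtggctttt
Mef2c window 3, chr13:83573357-83573656, plus strand: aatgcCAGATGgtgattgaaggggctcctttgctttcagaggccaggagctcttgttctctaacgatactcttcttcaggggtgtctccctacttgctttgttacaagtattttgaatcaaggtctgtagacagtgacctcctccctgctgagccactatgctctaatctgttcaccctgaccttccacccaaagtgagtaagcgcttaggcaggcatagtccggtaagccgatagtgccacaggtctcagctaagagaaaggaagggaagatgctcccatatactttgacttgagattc
In window 1 the MEF3 letters begin 248 bases before the start, with E-boxes 234 and 100 bases before it. Window 3 holds 1 E-box, 245 bases before the start, and window 2 holds none of the 3 motifs. A match of letters is a description of the window only, and the arrays do not say which start was used.

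Mef2a, a MEF2 factor of heart and skeletal muscle, was read by a dim probe that varied more between arrays than those of the other 3 genes. Its probe (NM_001033713) read 44.7, 35.2 and 25.7 scanner units in proliferation, 39.45, 13.6 and 14.7 at day 2, 18.8, 16.1 and 15.8 at day 5 and 14.4, 27.8 and 11.05 at day 8. Within day 2, array 1 stood 1.57 above the mean of the other day 2 arrays on the log2 scale, and it is the day 2 array that lies on the slide of the proliferation arrays. The stage means were -5.78 ± 0.40, -6.25 ± 0.91, -6.45 ± 0.14 and -6.51 ± 0.49 (SD, n = 3), in stage order. The residual SD of its fit was 0.56 on the log2 scale, against 0.28 for Mef2c, 0.20 for Mef2d and 0.15 for Six4.

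Against proliferation, Mef2a had log2 fold changes of -0.47 ± 0.41 at day 2 (interval -1.37 to 0.43, limma adjusted p = 0.408), -0.67 ± 0.41 at day 5 (-1.56 to 0.23, 0.203) and -0.73 ± 0.41 at day 8 (-1.63 to 0.16, 0.149). None passed the threshold, and the intervals reach a fall of more than 1 log2 unit. Without day 2 array 1 the day 2 and day 8 differences were called (-0.99, adjusted p = 0.0394, and -0.73, adjusted p = 0.041). With the slide as a fixed block the signs turned, to 0.58, 0.91 and 0.84 for days 2, 5 and 8, and with normexp to 0.22, 0.13 and 0.27, none of them called. The normexp offset of 50 exceeds every Mef2a signal, so that setting cannot decide the sign. Within slides the differences were 0.58 (slide 1, day 2 against proliferation), 0.33 (slide 2, day 5 against day 2) and -0.07 (slide 3, day 8 against day 5). The slide-block values are built from these same differences, so they are not a separate check. All of them rest on day 2 array 1, the only day 2 array on slide 1. The sign of the Mef2a difference therefore depended on the setting. The signal of the negative-control probes had medians of 6.25, 5.39 and 2.42 in proliferation, 3.53, 1.78 and 1.97 at day 2, 1.39, 1.65 and 2.83 at day 5 and 2.25, 1.98 and 2.07 at day 8. Those on slide 1 were thus 2.42 to 6.25 and those on slides 2 and 3 were 1.39 to 2.83; the part of this level in the Mef2a values was not tested beyond subtracting it, which gave -0.45, -0.65 and -0.75.

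The promoter window of Mef2a is shown because it holds the MEF2 consensus, the only window of the 4 genes that does, with the first base 2 bases before the start.
Mef2a window, chr7:67372809-67373108, minus strand: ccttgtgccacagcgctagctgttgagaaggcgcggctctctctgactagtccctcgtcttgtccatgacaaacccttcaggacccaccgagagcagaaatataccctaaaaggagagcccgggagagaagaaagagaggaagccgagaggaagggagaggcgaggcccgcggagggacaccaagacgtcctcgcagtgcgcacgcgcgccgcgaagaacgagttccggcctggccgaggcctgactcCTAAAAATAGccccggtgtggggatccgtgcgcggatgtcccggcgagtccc
No E-box or MEF3 letters lie in this window.

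Mef2d, the MEF2 factor known to switch to a muscle-specific splice form during differentiation, was not called in any comparison either, and whether its probe separates splice forms was not examined. It (NM_133665) read 368.6, 378.8 and 507.6 scanner units in proliferation, 299.3, 359.3 and 326.4 at day 2, 265.4, 245.1 and 322.6 at day 5 and 272.0, 412.5 and 317.9 at day 8. On the normalised scale the stages overlapped in each comparison made here, and the stage means were -2.19 ± 0.26, -2.21 ± 0.08, -2.42 ± 0.29 and -2.19 ± 0.06 (SD, n = 3), in stage order. At day 8 the log2 fold change was 0.00 ± 0.17 (interval -0.38 to 0.38, limma adjusted p = 0.997), and with the slide as a fixed block it was -0.58, not called (adjusted p = 0.319). At day 5 it was -0.23 ± 0.17 (-0.60 to 0.15, adjusted p = 0.302) and at day 2 it was -0.02 ± 0.17 (-0.40 to 0.35, adjusted p = 0.93). The spot was flagged as non-uniform on 2 of 3 arrays in each of the first 3 stages and on all 3 at day 8, so no day 8 value remains where such spots are left out.

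Six4, a SIX-family factor expressed in myogenic precursors, was not called in any comparison. Its probe (NM_011382) read 3999.4, 4399.7 and 3696.6 scanner units in proliferation, 2490.9, 2698.0 and 2493.5 at day 2, 2449.8, 2930.0 and 2421.2 at day 5 and 2688.0, 3297.2 and 2287.7 at day 8. The Six4 spot was flagged as non-uniform on 1 of 3 arrays at day 2 and on 2 of 3 at day 5 and at day 8. On the normalised scale the means were 1.09 ± 0.21, 0.75 ± 0.05, 0.82 ± 0.10 and 0.86 ± 0.19 (SD, n = 3), in stage order. All day 2 and day 5 arrays lay below all proliferation arrays, while day 8 overlapped proliferation. The log2 fold changes against proliferation were -0.34 ± 0.14 at day 2 (interval -0.66 to -0.02, limma adjusted p = 0.101), -0.28 ± 0.14 at day 5 (-0.60 to 0.04, 0.14) and -0.23 ± 0.14 at day 8 (-0.55 to 0.09, 0.202), none of them called. Such a gap is common on these arrays, at 46.3% of all tested probes for day 2 and 56.3% for day 5.

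The MEF3 letters are in the first of 2 Six4 windows, beginning 97 bases before the start.
Six4 window 1, chr12:73113196-73113495, minus strand: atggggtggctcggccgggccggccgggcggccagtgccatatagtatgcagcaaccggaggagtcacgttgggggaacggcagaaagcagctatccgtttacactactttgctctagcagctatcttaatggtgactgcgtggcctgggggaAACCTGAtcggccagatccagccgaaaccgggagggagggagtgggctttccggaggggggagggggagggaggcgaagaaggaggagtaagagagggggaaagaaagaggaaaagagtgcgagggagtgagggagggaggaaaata
The other Six4 window, whose start lies upstream of this one and overlaps it, holds none of the 3 motifs.

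The difference of course between genes was tested as the within-array difference of each probe minus Mef2c. At day 8 against proliferation, the change of Mef2a was lower than that of Mef2c by 2.71 ± 0.40 on the log2 scale (limma adjusted p = 3.67e-06). Mef2d fell short of the Mef2c change by 1.97 ± 0.32 (adjusted p = 1.24e-05) and Six4 by 2.20 ± 0.32 (adjusted p = 2.77e-06). At day 5 the 3 genes also differed from Mef2c (by 1.40, 0.96 and 1.01, adjusted p = 0.00681, 0.0186 and 0.0124). As a background, 52% of all probes had a day 5 change unequal to that of Mef2c and 91.6% a day 8 change, so such a difference is common on this array. With the slide block the difference at day 8 was called for Mef2d and Six4, and for 11335 of all 22958 probes.

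Of 3 other SIX-family and Mef2 genes tested and reported here, 1 rose and none fell at day 8, where 25.4% of all tested probes were higher and 29.4% lower. Six5, a further SIX-family homeobox gene, rose at day 2 (1.11 ± 0.18, adjusted p = 0.00147), day 5 (1.48, 6.16e-05) and day 8 (1.17, 0.000292). With the slide block the day 8 rise of Six5 was no longer called (adjusted p = 0.0831). Mef2b was not called at day 2 (0.71, adjusted p = 0.0506), day 5 (0.64, 0.0535) or day 8 (-0.26, 0.404) against proliferation. It was lower at day 8 than at day 5 (-0.89, adjusted p = 0.04), a call lost in 14 of 21 alternatives. Six2 had a day 8 log2 fold change of -0.72 (adjusted p = 0.0994), with day 8 signals of 18.3, 9.5 and 7.6 scanner units, against 26.5, 23.6 and 18.7 in proliferation, near the scanner's background. Six3 and Six6, which were well above background on 0 and 1 of the 12 arrays, were not tested.

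Of the 4 tested Eya genes (6 in the list with Dach1 and Dach2, neither tested), 2 rose and 1 fell at day 8, beside the same 25.4% and 29.4% of all tested probes. EYA proteins are phosphatases that work as SIX-family cofactors. Eya2 rose at day 2 (log2 fold change 1.17 ± 0.28, limma adjusted p = 0.0109), day 5 (2.63, 2.32e-05) and day 8 (1.67, 0.000535). It read 61.0, 39.4 and 53.7 scanner units at day 8, against 16.1, 18.7 and 26.3 in proliferation, where 1 of 3 arrays was well above background. Eya4 rose at day 8 (1.29 ± 0.22, adjusted p = 0.000592), with 491.2, 892.1 and 441.9 scanner units, against 371.9, 313.4 and 224.7 in proliferation. Eya1 fell at day 5 (-0.90 ± 0.12, adjusted p = 9.61e-05) and day 8 (-0.57 ± 0.12, 0.00194), with 2751.1, 3545.5 and 2850.2 scanner units at day 8, against 5968.5, 5452.1 and 5549.7 in proliferation. Eya3, which was bright in every stage, had a log2 fold change of -0.02 at day 8 (adjusted p = 0.907), and its 2 other probes had -0.33 (0.058) and -0.37 (0.0617). The day 8 calls of Eya1, Eya2 and Eya4 were lost with the slide block, as was the day 2 call of Eya2, and that of Eya1 at day 8 was also lost with normexp.

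**Figure D3:**
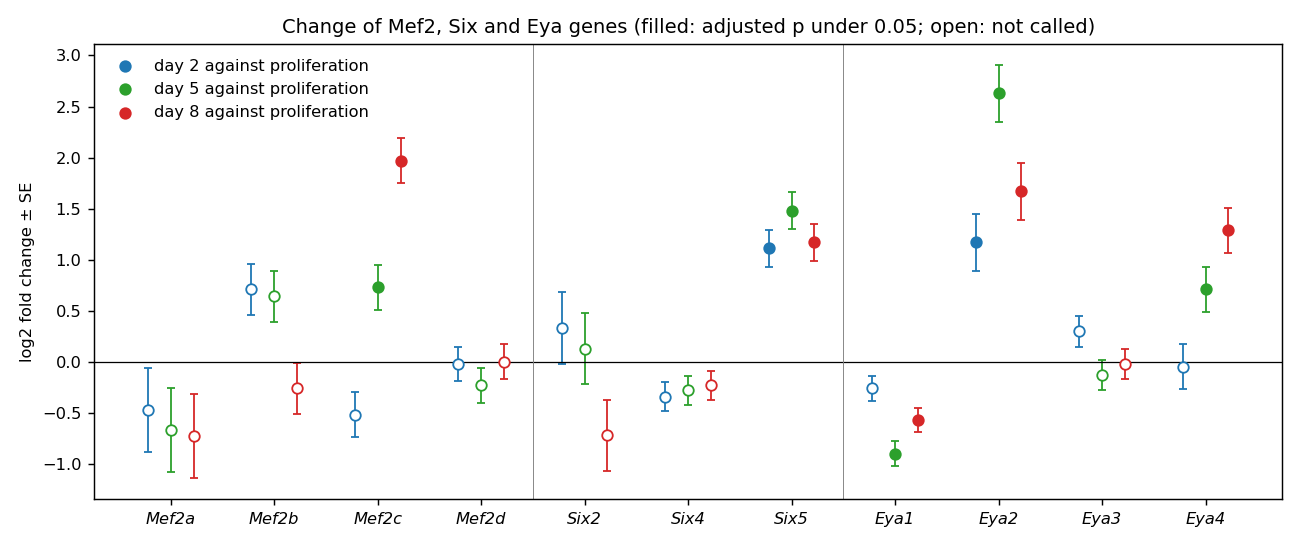
Log2 fold changes against proliferation (vertical, with SE) of the Mef2, SIX-family and Eya genes described here, at days 2, 5 and 8 from left to right within each gene. Filled points passed adjusted p under 0.05. Mef2c, Six5, Eya2 and Eya4 are filled above 0 at day 8, and Eya1 is filled below 0.

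Cofactors and regulators moved in both directions. Of all tested probes, 25.4% were higher and 29.4% lower at day 8, and 23.7% and 23.8% at day 5. Of 12 MEF2 repressors, 3 rose and 2 fell at day 8 (median 0.12, against -0.115 for all tested probes). Twist1 (1.66 ± 0.21), Hdac9 (1.18 ± 0.18) and Hdac4 (0.96 ± 0.15), the last 2 being class IIa deacetylases that bind MEF2, rose. Zbtb16, a zinc finger repressor (-1.02 ± 0.21), and the deacetylase Hdac1 (-0.57 ± 0.15) fell. Twist1 was well above background on 1 of 3 proliferation arrays, and Zbtb16 on 2 of 3 arrays in both stages. With the slide block none of the 12 was called, and calls over all 22959 tested probes went from 12573 to 3972.

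Of 24 kinases, calcineurin subunits and related genes, 10 rose and 5 fell at day 8 (median 0.32). Of all tested probes, 25.4% were higher and 29.4% lower. The rises included Camk2b (5.72 ± 0.18) and Camk2a (4.07 ± 0.53), named for calcium/calmodulin kinase subunits, and Ppp3ca, a calcineurin catalytic subunit (1.27 ± 0.14). Camk2a was well above background on 2 of 3 proliferation arrays, ran from 2.20 to 5.07 over the alternatives and was not called with the slide block (adjusted p = 0.0532). A second Camk2a probe rose by 2.79 (adjusted p = 4.06e-07). Mapk11 (-0.83 ± 0.30), a p38 kinase, and its upstream kinases Map2k3 (-0.79 ± 0.14) and Map2k6 (-0.64 ± 0.25) fell. The Map2k6 call was lost under 18 of 21 alternatives and the Mapk11 call under 9. The slide block left 2 rises and 1 fall in the list, and 3972 calls among all 22959 tested probes. Of 12 tested coactivators of 14, 6 rose, among them Wwtr1 (1.08 ± 0.14), Kat2b (0.98 ± 0.14) and Smarcd3 (0.77 ± 0.26), a muscle chromatin remodelling subunit. 2 fell, Myocd (-1.40 ± 0.51) and Smarca4 (-1.24 ± 0.41), and the slide block left none of the 12 called. A second Myocd probe fell too (-2.40, adjusted p = 0.000923). Myocd was called under 10 of 21 alternatives, Smarca4 and Smarcd3 under 14 of 20 each.

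Most genes listed as MEF2 or SIX-family targets in muscle rose. Of 23 MEF2 targets tested, 16 rose and 2 fell at day 8, where 25.4% of all tested probes were higher and 29.4% lower. Their median log2 fold change was 4.0, against -0.115 for all tested probes. With the slide block 14 rose and none fell, where 3972 of the 22959 tested probes were called in either direction. Without non-uniform spots 13 of the genes could be tested, of which 8 rose and 2 fell (median 2.39). That setting called 7067 of all probes in either direction. Myoglobin (Mb), the oxygen store of muscle, rose by 8.79 ± 0.41, Abra, an actin-binding protein of striated muscle, by 8.72 ± 0.18 and Ckm, muscle creatine kinase, by 7.48 ± 0.23. Mb and Ckm were well above background on 1 of 3 proliferation arrays, so those folds rest in part on signals near background. Ppargc1a (-0.94 ± 0.22), a metabolic coactivator, and Xirp2 (-0.66 ± 0.16) fell. Ppargc1a was dim, with mean signals of 15.4 scanner units at day 8 and 37.0 in proliferation, and was well above background on 2 of 3 day 8 arrays. Its call held under 18 of 21 alternatives and that of Xirp2 under 19 of 21. Of 19 SIX-family targets, 13 rose and 2 fell (median 5.76), beside the same 25.4% and 29.4% of all tested probes. With the slide block 11 rose and 1 fell. Without non-uniform spots 9 could be tested, of which 5 rose and 1 fell (median 0.78). The rises included Myh4 (10.65 ± 0.24, 1 of 3 proliferation arrays well above background), Tnnc2 (8.04 ± 0.27) and Myh1 (7.91 ± 0.25), fast-fibre contractile genes, and the falls were Gdnf (-1.19 ± 0.19) and Myf5 (-0.46 ± 0.15). The Gdnf call held under all 21 alternatives and the Myf5 call under 14 of 21. The 2 lists share Myog, Ckm, Eno3 and Myf6. Hdac9 is in the MEF2 target list as well as among the repressors, so its rise is counted in both. Myog itself, a target of both MEF2 and SIX-family factors, rose by 2.82 at day 2, 7.53 at day 5 and 6.10 at day 8 against proliferation. It was lower at day 8 than at day 5 (-1.43, adjusted p = 0.00514), a call lost with the slide block. These lists were chosen for known regulation, with earlier results of these data known, and no link of a factor to a target was measured.

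The Myog window is shown as the target that both factor families are known to bind. It holds 2 E-boxes, 138 and 12 bases before the start, and the MEF3 letters, 84 bases before the start. No stretch of it matched the MEF2 consensus exactly. The search misses a MEF2 site that departs from the consensus, so it does not show that the window lacks one.
Myog window, chr1:134289754-134290053, plus strand: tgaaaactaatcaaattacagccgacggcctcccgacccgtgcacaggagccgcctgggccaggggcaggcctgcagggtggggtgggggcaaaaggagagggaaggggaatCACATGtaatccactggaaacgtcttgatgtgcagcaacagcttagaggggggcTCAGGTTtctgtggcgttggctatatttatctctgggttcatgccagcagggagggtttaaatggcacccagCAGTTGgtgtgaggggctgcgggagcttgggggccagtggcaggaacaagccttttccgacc

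**Figure D4:**
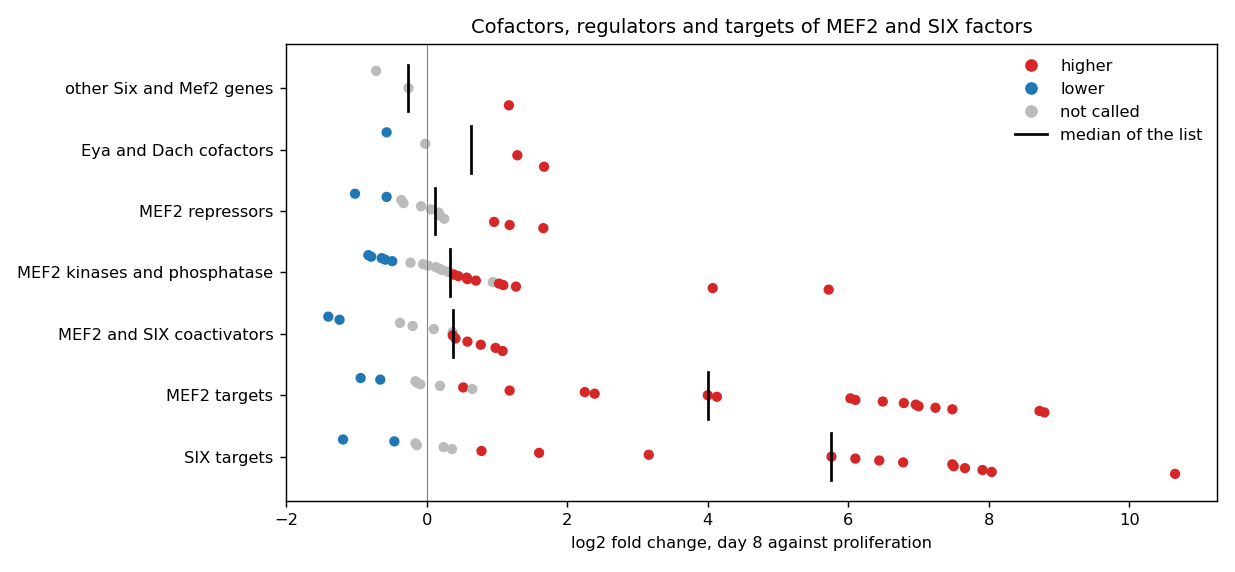
Log2 fold change at day 8 against proliferation (horizontal) of the genes of each list (rows), each point a gene, coloured by its call, and the black bar the list median. The MEF2 and SIX-family target medians lie at 4.0 and 5.76, and those of the cofactor and regulator lists between 0.12 and 0.64; that of the other SIX-family and Mef2 genes is at -0.26.

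The genes whose signal ran most like Mef2c over the 12 arrays were B3galt1 (Pearson r = 0.976), Tnfsf15 (0.970), Adprhl1 (0.970), Tmem123 (0.969) and Grhl3 (0.969). They are a glycosyltransferase, a tumour necrosis factor family ligand, a protein related to ADP-ribosylhydrolases, a membrane protein and a grainyhead-like transcription factor. The 12 arrays share their stage and slide, so this correlation describes a shared course over the stages, and 328 tested probes correlated at 0.9 or above. The day 8 rise was 1.88 for B3galt1, 2.04 for Tnfsf15, 3.11 for Adprhl1, 1.30 for Tmem123 and 2.16 for Grhl3, on the log2 scale.

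**Figure D5:**
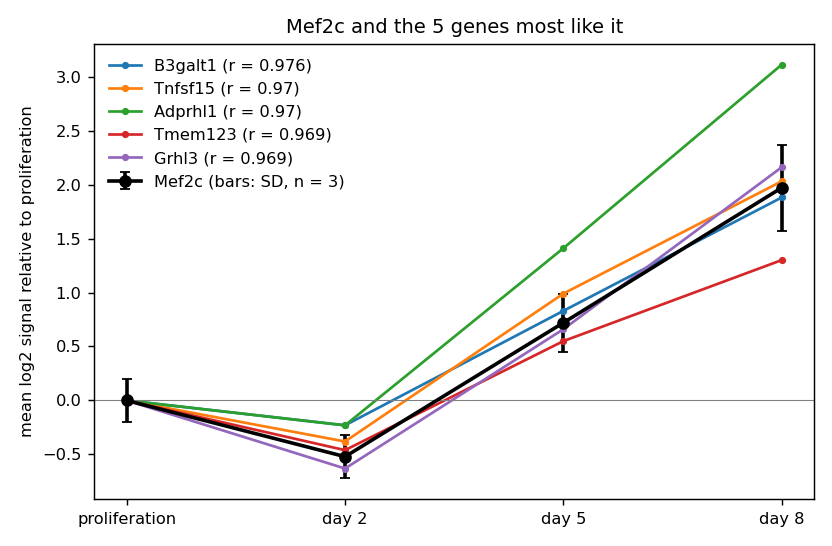
Stage means of Mef2c (black, bars are SD, n = 3 arrays) and of the 5 genes most like it (coloured), as log2 signal relative to proliferation (vertical) by stage (horizontal). The 5 genes were chosen for a course like that of Mef2c, which fixes the shape of their lines, and at day 8 they differ in height, with Adprhl1 the steepest (3.11) and Tmem123 the flattest (1.30).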

How the data were processed

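RNA from C2C12 cells at 4 stages was read on 12 one-colour arrays. Each deposited file is one array's output of Agilent Feature Extraction, named by the submitters' processing notes as version 10.5.1.1. The processed signal used here is an intensity in scanner units after that software's background treatment, per the file headers, and no normalization between arrays is recorded. Control and negative probes were set aside, the deposited intensities were converted to log2, spots of a probe averaged without population outliers, and each array's 75th percentile subtracted. A probe entered the tests if some stage had it well above background on each of its 3 arrays.

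1 fit of 4 stage means was made with limma (version 3.58.1, R 4.3.3, with the data.table package, version 1.17.8), calling changes at a Benjamini-Hochberg adjusted p below 0.05, and the script was tested on simulated data. Figures used matplotlib 3.10.9 (Python 3.11.15, pandas 2.3.3). The arrays' number limits the precision. The 4 genes and the lists were chosen with earlier results of these data known. The rule for named genes took every gene of a list of 6 or fewer, the 3 largest called rises and falls at day 8 of longer lists, and for Mef2c the 5 probes most correlated over the arrays. A gene with several probes was represented by its brightest. Names came from a GRCm38.p6 gene list, while the array header gives mm9, so no array coordinates are printed; promoter coordinates are those of RefSeq. Normexp used the median signal (offset 50), because the files used hold no mean signal column. The test of a difference between probes of a gene, and the median over a gene's probes, had no value, since each of the 4 genes had a single matched probe. Replicate numbers did not pair the arrays (correlation of deviations -0.16 to 0.24 for the same number, -0.26 to 0.22 for different ones). Some genes of these lists are not reported here, and counts and medians of the lists leave them out.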

Additional observations from a re-analysis of the deposited data

How the results depend on the processing

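Mef2c at day 8 against proliferation was called in all 21 alternatives, and the number of called genes among the 4 changed in the following. At day 5 against proliferation, normexp and the fixed slide block gave 0 genes in place of 1, and leaving out arrays gave 0 to 1. Normexp gave 0 at day 5 against day 2, and the slide block 0 at day 8 against day 5. Leaving out arrays gave 0 to 1 at day 2 and 1 to 2 at day 8, since Mef2a was called without day 2 array 1. The difference from Mef2c was called for 2 genes (Mef2d and Six4) in place of 3 with the slide block, and for 1 (Mef2a) without non-uniform spots, where 1 could be tested and neither Mef2d nor Six4 could. Changes of sign fell on values that were not called. With normexp they were Mef2a at 0.22, 0.13 and 0.27 (days 2, 5, 8), Mef2a 0.14 and Six4 -0.07 (day 8 against day 5), and Mef2d 0.10 (day 5 against day 2). With the slide block they were Mef2a 0.58, 0.91 and 0.84, Mef2a 0.33 (day 5 against day 2), and Mef2d -0.58 (day 8) and -0.09 (day 8 against day 5). Quantile normalization gave 0.03 for Mef2d at day 2, and 0.03 and 0.18 for Mef2a at day 5 against day 2 and day 8 against day 5. Mef2d at day 8 was -0.02 with the percentile over always-bright probes and with slide as a random block, and 0.16 at day 2 without non-uniform spots. Leaving out single arrays, Mef2d ran from -0.12 to 0.13 at day 8 and from -0.15 to 0.11 at day 2, Mef2a from -0.49 to 0.33 (day 5 against day 2) and -0.31 to 0.18 (day 8 against day 5), and Six4 from -0.05 to 0.14 (day 8 against day 5). The cause of these shifts was not tested, and the normexp offset of 50 exceeds every Mef2a signal. Over all probes, the slide block called 3518 at day 2 and 3972 at day 8, against 7018 and 12573, and leaving out non-uniform spots called 3465 and 7067. Normexp moved the median of all probes to 0.200 and 0.152 at those days. The random block and the negative-probe subtraction were chosen after seeing the data.

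With the replicate block, Mef2c at day 8 kept an adjusted p of 9.18e-05, and no member's call changed.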
